A study of Mus musculus with 20 samples.

Results

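The translation initiation factor genes of mouse, together with the 4 kinases that phosphorylate eIF2, were followed in primary cortical neurons kept in normal medium or deprived of oxygen and glucose. Members were taken by symbol, as every gene whose name starts with Eif and a digit, leaving out 1 pseudogene (Eif4a-ps4) of the 54 that matched. This gave 53 of the 14700 genes in the deposited tables, and all 53 were listed in each of the 4 tables. Their roles comprised 4 eIF2 kinases, 4 eIF2 subunits, 5 eIF2B subunits, 14 eIF3 subunits, 3 proteins that bind eIF4E, 11 members of eIF4F and its partners, and 12 factors of start codon selection and other steps.

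Neurons came from the cortex of embryonic day 15 mice and were cultured for 7 days, and 20 libraries of total RNA were analysed, 5 in each of 4 groups. All mice are labelled with the strain C57BL/6N-Cdr1asem1Nikr, the wild types included. N_WT are wild-type neurons after 12 h of normoxia in 25 mM glucose with pyruvate, and OGD_WT are wild-type neurons after 12 h of oxygen and glucose deprivation, at 1% O2 without added glucose. N_KO and OGD_KO are neurons lacking the circular RNA ciRS-7, also called Cdr1as, after the same treatments. Per the labels, libraries of the same genotype and number share a culture batch, and the design describes 5 biological replicates. Such libraries are taken below as 1 culture under both treatments, an assumption from the shared number and batch. The gene listed as Cdr1as had 545 to 1912 reads per wild-type library and 2 to 16 per knockout library. Reads recovered from the deposited values came to 7071506 to 16658617 per library.

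The dishes held more than neurons, and the RNA of neuron, astrocyte and proliferation markers differed between treatments. Higher and lower are calls as defined below. Of all genes 21.6% were called higher and 22.8% lower in wild type, and 21% and 19.9% in knockout. All 11 neuron markers were listed, and their summed level was 4511 to 5837 CPM (reads scaled to library size) in N_WT and 3005 to 5260 CPM in OGD_WT, with 7 lower and 0 higher after deprivation; in the knockout it was 4934 to 5055 and 3178 to 4070 CPM, with 8 lower and 0 higher. Of 8 astrocyte markers 7 were listed (not S100b), summing to 1042 to 1236 CPM in N_WT and 1522 to 2008 CPM in OGD_WT, with 4 higher and 1 lower. The knockout sums were 774 to 1409 and 1384 to 1931 CPM, with 3 higher and 0 lower. All 8 proliferation genes were higher after deprivation in both genotypes, with sums of 429 to 560 CPM in N_WT and 818 to 1449 CPM in OGD_WT, and 399 to 642 CPM in N_KO and 982 to 1326 CPM in OGD_KO. Oligodendrocyte lineage markers, of which 7 of 9 were listed (not Mog and Mag), summed to 279 to 347 CPM in N_WT and 321 to 478 CPM in OGD_WT, with 1 higher and 2 lower, and to 200.5 to 384 and 270.5 to 388 CPM in the knockout, with 3 higher and 0 lower. Of 5 endothelial markers only Kdr was listed, at 0.349 to 1.16 CPM in N_WT and 0.892 to 1.72 CPM in OGD_WT, 0.409 to 0.859 CPM in N_KO and 1.01 to 2.72 CPM in OGD_KO, and none of 8 microglia markers was listed. The part of these shifts in the results below was not tested, and in bulk RNA fewer cells of a type and less RNA per cell cannot be told apart.

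Translation starts when eIF2, carrying GTP and the initiator tRNA, joins the small ribosomal subunit with eIF1, eIF1A, eIF3 and eIF5, and when eIF4F, made of the cap-binding protein eIF4E, the helicase eIF4A and the scaffold eIF4G, brings that subunit to the mRNA. Stress lowers initiation at both points: the kinases HRI (Eif2ak1), PKR (Eif2ak2), PERK (Eif2ak3) and GCN2 (Eif2ak4) phosphorylate eIF2 so that it blocks its exchange factor eIF2B, and 4E-binding proteins that mTORC1 has not phosphorylated hold eIF4E away from eIF4G. Phosphorylated eIF2 lowers most protein synthesis but favours the mRNA of the transcription factor ATF4, whose targets include many stress genes, and neurons without oxygen or glucose are known to phosphorylate eIF2 through PERK. These RNA levels report neither phosphorylation nor protein.

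The promoters of 3 members are shown, as the 250 bases upstream of the RefSeq start on GRCm38.p6, read 5′ to 3′ on the strand of the gene, for the kinase that rose, for the largest riser of the eIF4 group with a RefSeq promoter, and for the member that fell most. Capitals mark, in Eif2ak3, every CCAAT box on either strand (CCAAT, or ATTGG where it lies on the other strand) and, in Eif5a2, the E-box CACGTG; Eif4b holds none of the motifs searched and has no capitals.
Eif2ak3, chr6:70844265-70844514, plus strand: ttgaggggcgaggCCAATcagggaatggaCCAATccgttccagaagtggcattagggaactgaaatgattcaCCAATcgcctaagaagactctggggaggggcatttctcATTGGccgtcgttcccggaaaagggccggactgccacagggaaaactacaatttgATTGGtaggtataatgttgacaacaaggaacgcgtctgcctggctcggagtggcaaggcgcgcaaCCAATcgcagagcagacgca
Eif4b, chr15:102073523-102073772, plus strand: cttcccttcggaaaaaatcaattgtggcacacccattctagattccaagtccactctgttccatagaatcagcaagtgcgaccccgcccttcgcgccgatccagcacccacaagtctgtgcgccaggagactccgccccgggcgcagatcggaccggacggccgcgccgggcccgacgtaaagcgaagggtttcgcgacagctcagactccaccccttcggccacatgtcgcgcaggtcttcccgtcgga
Eif5a2, chr3:28781027-28781276, plus strand: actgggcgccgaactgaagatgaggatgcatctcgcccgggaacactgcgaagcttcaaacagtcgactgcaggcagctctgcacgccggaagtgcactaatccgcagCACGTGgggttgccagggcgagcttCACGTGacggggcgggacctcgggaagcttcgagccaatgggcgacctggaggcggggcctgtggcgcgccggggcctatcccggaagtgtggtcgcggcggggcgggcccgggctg
The Eif2ak3 window holds 6 CCAAT boxes and 0 E-boxes. The Eif5a2 window holds 2 E-boxes and also 1 CCAAT box, which is not marked. RefSeq promoters were matched for 43 of the 53 members. In the same 250-base window of all 32851 RefSeq promoters, CCAAT was found on either strand in 33.8%, CACGTG in 6.02%, the hypoxia element core ACGTG (which every CACGTG also contains) in 16.6%, and the ATF4 and C/EBP composite site TGATGNAA in 3.45%. Among the 56 member promoters the shares were 25%, 19.6%, 37.5% and 1.79%. The 1 member with TGATGNAA was Eif2s3x, whose RNA did not pass the test in either genotype. A match describes these letters only.

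Oxygen and glucose deprivation raised more of the initiation factor genes than it lowered when libraries were scaled as deposited. In wild-type neurons 15 of 53 members were higher and 2 lower, against a background of 21.6% of all 14235 genes higher and 22.8% lower; in knockout neurons 16 were higher and 2 lower, against 21% and 19.9% of 14375 genes. The called genes were nearly shared: 15 rose and 2 fell in both genotypes, against 18% and 17.9% of genes called alike in both, and the 1 other was Eif3a, called only in the knockout. The median log2 fold change of the members was 0.14 in each genotype, beside -0.03 in wild type and 0.00 in knockout for all genes. A call is a Benjamini-Hochberg adjusted p under 0.05 in limma over all genes of a table, two-sided.

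The balance of rises and falls depended on the scale, and that limit touches every small change given here. The share of reads from the mitochondrial ribosomal RNA mt-Rnr2 was 10.1% to 14.0% in N_WT and 13.8% to 24.6% in OGD_WT, and 10.1% to 16.4% and 18.0% to 32.0% in the knockout. Scaled to the total reads of each library instead, 5 members were higher and 12 lower in wild type, against 11.5% and 40.5% of all genes, and 5 and 14 in the knockout, against 10.4% and 37%. On that scale the median of all genes moved to -0.29 in wild type and -0.27 in knockout, and that of the members to -0.14 in both, so the members' median lay above that of all genes on either scale. The same 7 members kept their call under both scalings in both genotypes: Eif4ebp1, Eif2ak3, Eif1, Eif4b and Eif1b rose, and Eif5a2 and Eif4e3 fell. The share of all genes that did so was not counted. For the batch fits, labels 3.1, 3.2 and 3.3 were pooled as batch 3, so differences among these labels were not modelled. Within batch 3 alone, 12 members were called in the 4 wild-type cultures. In the 3 knockout cultures 5 were called (Eif2ak3, Eif4ebp1, Eif4b, Eif1 and Eif5a2). With this pooled batch as a term 15 and 14 were called. Batches 1 and 2 hold at most 1 culture of a genotype each. Shares of all genes were not counted for the batch fits.

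**Figure D1:**
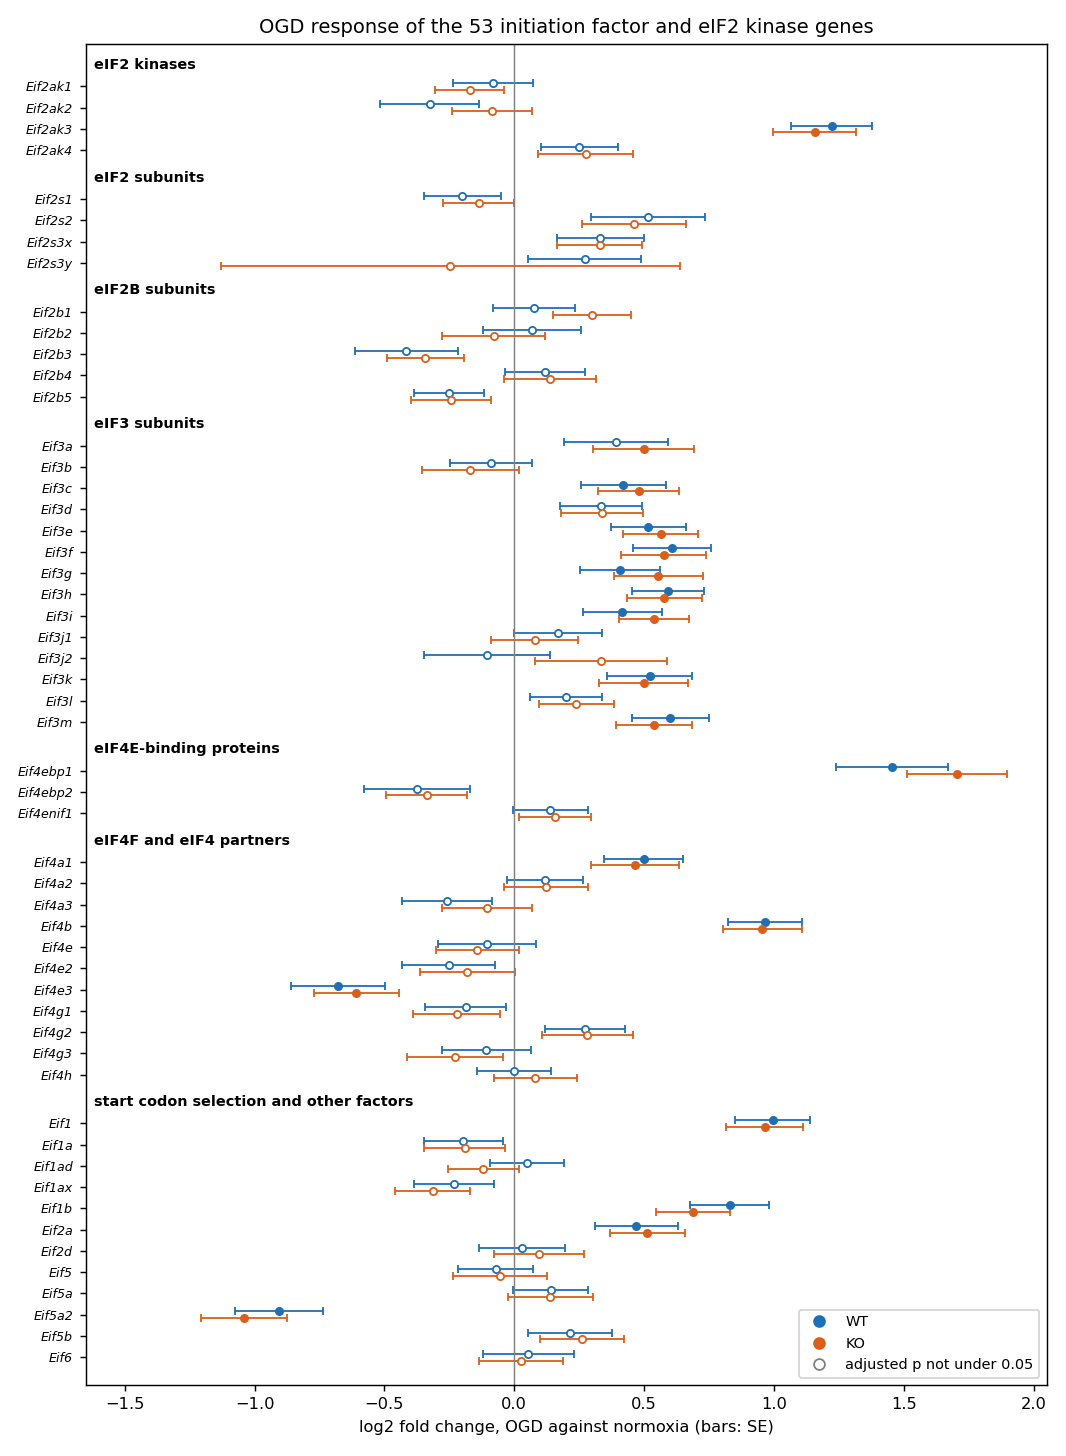
Log2 fold change after oxygen and glucose deprivation for each of the 53 genes, grouped by role, in wild-type (blue) and knockout (orange) neurons; filled points have an adjusted p under 0.05. Eif4ebp1 (1.46 and 1.70) and Eif2ak3 (1.22 and 1.16) lie furthest right, Eif5a2 (-0.91 and -1.04) furthest left, and the called eIF3 subunits cluster between 0.41 and 0.61.

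**Figure D2:**
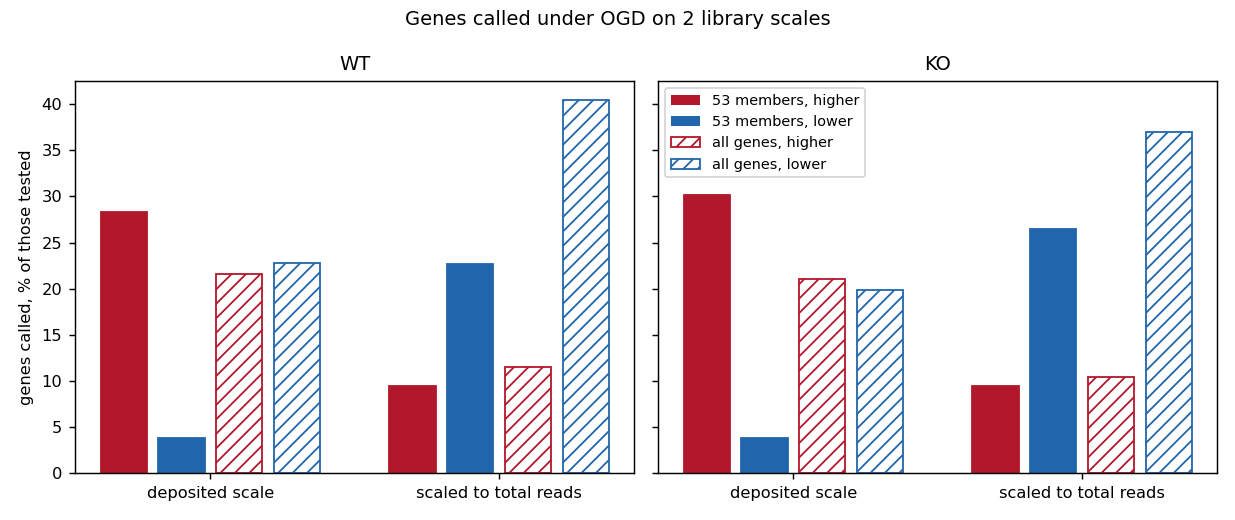
Percent of genes called higher (red) and lower (blue) after deprivation, for the 53 members (solid) and for all genes tested (hatched), with libraries scaled as deposited and scaled to total reads. The members go from 15 higher and 2 lower to 5 and 12 in wild type, and from 16 and 2 to 5 and 14 in the knockout.

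Among the 4 eIF2 kinases only PERK RNA was called higher, in both genotypes, and 0 were called lower. A count of 1 of 4 lies near the 21.6% and 21% of all genes called higher in wild type and knockout. Eif2ak3, the kinase that senses unfolded proteins in the endoplasmic reticulum, lies at chr6:70844515-70905245 on the plus strand (mm10). Its log2 CPM in the 5 OGD_WT libraries, in the order of the replicate numbers, was 6.39, 6.45, 6.35, 6.14 and 6.22, and 5.11, 4.95, 5.06, 5.59 and 4.72 in N_WT. In OGD_KO it was 6.03, 6.75, 6.13, 5.90 and 5.92, and 5.03, 4.90, 5.00, 5.10 and 4.92 in N_KO. Every deprived library lay above every normoxic one in both genotypes, and the deprived library was higher in 5 of 5 cultures of each. The log2 fold change was 1.22 ± 0.16 (SE, limma adjusted p = 3.01e-06) in wild type, a 2.33-fold rise, and 1.16 ± 0.16 (limma adjusted p = 1.93e-05) in knockout, a 2.23-fold rise. Scaled to total reads it was 0.94 and 0.87, with limma adjusted p of 3.39e-05 and 0.000474.

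The other 3 kinases did not pass the test on the deposited scale. HRI, the heme-regulated kinase Eif2ak1 (chr5:143817788-143904251, plus strand), had log2 CPM of 5.49, 6.11, 5.64, 5.53 and 5.43 in OGD_WT and 5.71, 5.53, 5.75, 5.62 and 6.00 in N_WT, and 5.58, 5.34, 5.52, 5.76 and 5.42 in OGD_KO and 5.80, 5.62, 5.67, 5.64 and 5.75 in N_KO. Its groups overlapped, with log2 fold changes of -0.08 and -0.17 (limma adjusted p = 0.698 and 0.311). PKR, the double-stranded RNA kinase Eif2ak2 (chr17:78852564-78882573, minus strand), had 3.73, 2.83, 3.33, 3.55 and 3.69 in OGD_WT and 3.87, 3.58, 3.81, 4.20 and 3.28 in N_WT, and 3.48, 3.40, 3.87, 3.88 and 3.65 in OGD_KO and 3.50, 3.89, 3.52, 3.95 and 3.85 in N_KO. These groups overlapped too, at -0.33 and -0.09 (limma adjusted p = 0.168 and 0.684). On the total-read scale Eif2ak2 fell by 0.60 in wild type (limma adjusted p = 0.00954) and gave -0.37 in knockout (limma adjusted p = 0.0686). Eif2ak1 gave -0.36 in wild type (limma adjusted p = 0.0623) and fell by 0.46 in knockout (limma adjusted p = 0.0162).

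GCN2, the kinase of amino acid shortage (Eif2ak4, chr2:118388618-118475234, plus strand), had log2 CPM of 4.86, 4.98, 4.99, 4.96 and 5.43 in OGD_WT and 4.81, 4.55, 4.80, 4.79 and 5.01 in N_WT. The knockout values were 4.89, 4.80, 4.88, 4.55 and 5.55 in OGD_KO and 4.86, 4.98, 4.75, 4.24 and 4.45 in N_KO. It was higher after deprivation in 5 of 5 wild-type and 4 of 5 knockout cultures, but the groups overlapped and the log2 fold changes of 0.25 and 0.27 did not pass (limma adjusted p = 0.174 and 0.244). On the total-read scale they were -0.03 and -0.01.

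Per kilobase of exon the order of the kinases differed between the treatments. In N_WT the level was 9.29 ± 1.20 CPM per kb for Eif2ak1, 5.69 ± 1.37 for Eif2ak3, 3.68 ± 0.42 for Eif2ak4 and 2.61 ± 0.63 for Eif2ak2 (SD, n = 5). In OGD_WT Eif2ak3 led with 13.1 ± 1.13 CPM per kb, followed by Eif2ak1 with 8.86 ± 1.85, Eif2ak4 with 4.41 ± 0.75 and Eif2ak2 with 2.07 ± 0.49. The knockout had the same orders, with 9.08 ± 0.50 CPM per kb for Eif2ak1, 5.21 ± 0.30 for Eif2ak3, 3.38 ± 0.70 for Eif2ak4 and 2.55 ± 0.38 for Eif2ak2 in N_KO, and with 12.0 ± 3.31 for Eif2ak3, 8.08 ± 0.92 for Eif2ak1, 4.15 ± 1.20 for Eif2ak4 and 2.40 ± 0.38 for Eif2ak2 in OGD_KO. The mean ± SD ranges of neighbours in these orders overlapped in 2 cases, Eif2ak4 and Eif2ak2 in N_KO and Eif2ak3 and Eif2ak1 in OGD_KO. Exons of other genes on the opposite strand cover 11.6% of the Eif2ak1 exons and 8.05% of those of Eif2ak3, and whether the counting used strand is not given in the sources used here.

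**Figure D3:**
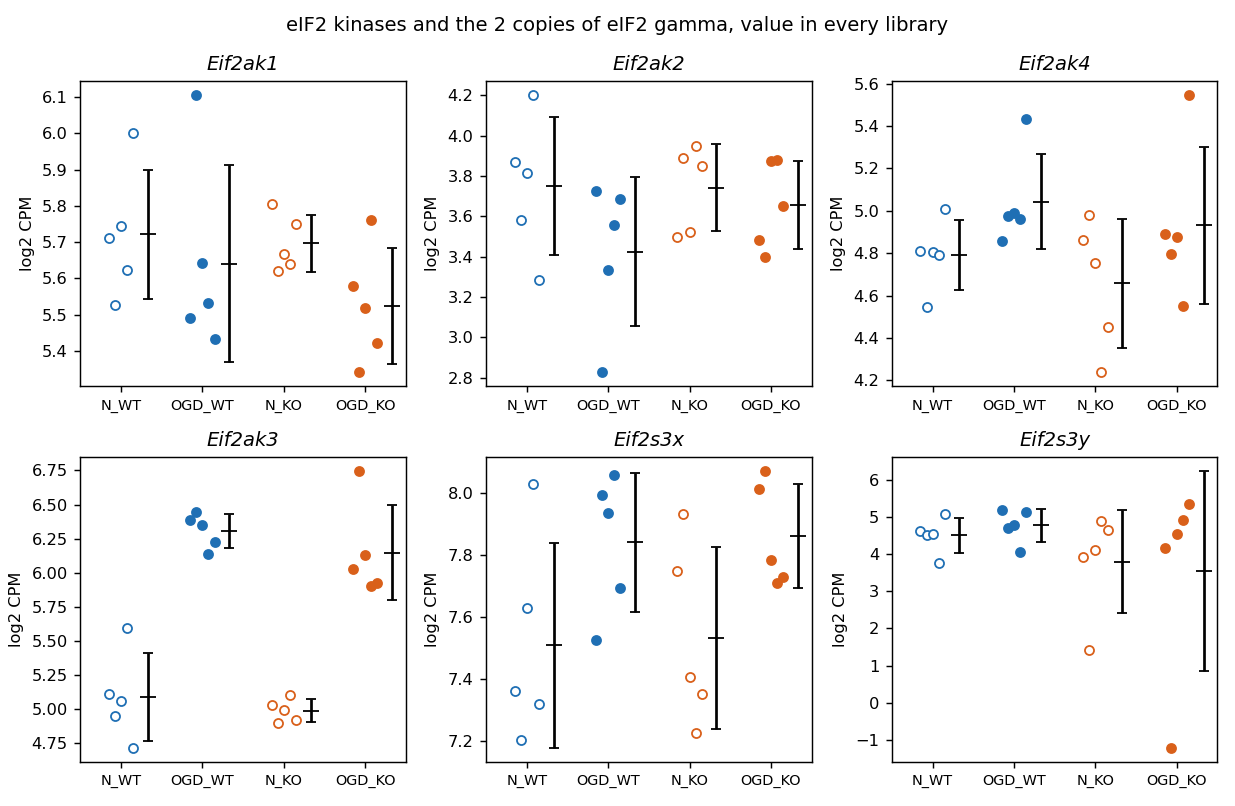
Log2 CPM of the 4 eIF2 kinases and of the 2 eIF2 gamma genes in every library, for N_WT, OGD_WT, N_KO and OGD_KO; open points are normoxia, filled points deprivation, and bars give the mean ± SD of 5 libraries. Eif2ak3 separates by treatment in both genotypes, and Eif2s3y has 2 low points, -1.21 in OGD_KO and 1.42 in N_KO, both of knockout culture 2.

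The substrate of these kinases and its exchange factor had 0 members called in either genotype. Of all genes 21.6% were called higher and 22.8% lower in wild type, and 21% and 19.9% in knockout. Eif2s1, which encodes the phosphorylated alpha subunit, had log2 fold changes of -0.20 and -0.14 (limma adjusted p = 0.287 and 0.446). Eif2s2, the beta subunit, had 0.51 and 0.46 (limma adjusted p = 0.0601 and 0.0716), and with the culture as a block it passed in the knockout (limma adjusted p = 0.022). Scaled to total reads Eif2s2 gave 0.24 and 0.17 (limma adjusted p = 0.353 and 0.546). Of the 5 eIF2B subunits Eif2b3 changed most in size, at -0.42 and -0.34 (limma adjusted p = 0.0935 and 0.0718), and Eif2b2 least, at 0.07 and -0.08. Eif2b3 was lower after deprivation in 5 of 5 knockout cultures, with groups that did not overlap. On the total-read scale Eif2s1, Eif2b3 and Eif2b5 were called lower in both genotypes.

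The gamma subunit, which binds GTP and the initiator tRNA, is encoded on both sex chromosomes in mouse. The X copy Eif2s3x (chrX:94188707-94212862, minus strand) had log2 CPM of 7.53, 7.99, 7.94, 8.06 and 7.69 in OGD_WT and 7.36, 7.20, 7.63, 8.03 and 7.32 in N_WT, and 8.01, 8.07, 7.78, 7.71 and 7.73 in OGD_KO and 7.75, 7.93, 7.41, 7.22 and 7.35 in N_KO. It was higher after deprivation in 5 of 5 cultures of each genotype, by 0.33 in both (limma adjusted p = 0.113 in both), with overlapping groups. Scaled to total reads Eif2s3x gave 0.05 and 0.04 (limma adjusted p = 0.813 and 0.878). In N_WT the X copy stood at 48.7 CPM per kb and the Y copy at 5.59 CPM per kb. Of the 50-base windows of Eif2s3x, 34.6% also occur in other genes, so its reads could be split by the counting.

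The Y copy Eif2s3y (chrY:1010543-1028847, plus strand) set 1 knockout culture apart. Its log2 CPM was 5.18, 4.71, 4.79, 4.06 and 5.14 in OGD_WT and 4.63, 4.50, 4.53, 3.77 and 5.09 in N_WT, and 4.17, -1.21, 4.54, 4.91 and 5.35 in OGD_KO and 3.91, 1.42, 4.12, 4.88 and 4.65 in N_KO. Culture 2 had 0 reads after deprivation, where 3 reads would be 0.218 CPM, and 33 reads in normoxia, while the other 4 knockout cultures had 239 to 315 and 143 to 403 reads. The X copy of that culture lay at the top of its groups, at 8.07 and 7.93 log2 CPM. Eif2s3y was 0.27 higher after deprivation in wild type (limma adjusted p = 0.326) and had -0.25 ± 0.88 (SE, limma adjusted p = 0.844) in knockout, a value that became 0.94 without the deprived library of culture 2. Of all members this gene had the widest difference of knockout from wild type, -0.69 ± 0.45 in normoxia and -1.26 ± 0.87 after deprivation (SE, limma adjusted p of 1 for each), and without culture 2 these came to -0.08 and -0.01.

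The 4E-binding protein gene Eif4ebp1 had the largest rise of all 53 members. It encodes 4E-BP1, which competes with eIF4G for eIF4E, and lies at chr8:27260329-27276674 on the plus strand. Its log2 CPM was 3.60, 3.47, 3.36, 3.26 and 3.54 in OGD_WT and 1.99, 1.48, 2.11, 1.46 and 2.91 in N_WT, and 3.65, 3.61, 3.38, 3.27 and 4.30 in OGD_KO and 1.78, 1.75, 2.20, 1.69 and 2.26 in N_KO. The groups did not overlap in either genotype, and the deprived library was higher in 5 of 5 cultures of each. The log2 fold change was 1.46 ± 0.21 (SE, limma adjusted p = 1.59e-05) in wild type, or 2.74-fold, and 1.70 ± 0.19 (limma adjusted p = 2.19e-06) in knockout, or 3.26-fold. With total-read scaling it was 1.20 and 1.43. The gene was shallow, with 25 to 54 reads per N_WT library and 72 to 180 per OGD_WT library. Per kilobase it went from the third lowest of the members in N_WT, 1.75 CPM per kb, to 4.79 ± 0.47 CPM per kb in OGD_WT and 5.68 ± 1.80 in OGD_KO (SD, n = 5).

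The other eIF4E-binding genes did not rise with it. Eif4ebp2, the 4E-BP known as the main form in brain, had log2 fold changes of -0.37 and -0.34 (limma adjusted p = 0.144 and 0.092), and scaled to total reads it fell by 0.64 and 0.61 (limma adjusted p = 0.0111 and 0.00604). Eif4enif1, the transporter that carries eIF4E into the nucleus, had 0.14 and 0.16 (limma adjusted p = 0.459 and 0.383), and -0.14 and -0.13 scaled to total reads.

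Among the 11 genes of eIF4F and its partners 2 rose and 1 fell in each genotype, no more than the shares of all genes. Those were 21.6% higher and 22.8% lower in wild type, and 21% and 19.9% in knockout. Eif4b, a cofactor of the eIF4A helicase (chr15:102073773-102097173, plus strand), had log2 CPM of 8.25, 8.62, 8.30, 8.04 and 8.26 in OGD_WT and 7.39, 7.22, 7.31, 7.31 and 7.41 in N_WT, and 8.17, 8.04, 8.24, 8.31 and 8.40 in OGD_KO and 7.33, 7.62, 7.26, 6.98 and 7.19 in N_KO. No library of the deprived groups overlapped its normoxic group. The rise was 0.97 ± 0.14 (SE, limma adjusted p = 1.55e-05) in wild type and 0.96 ± 0.15 (limma adjusted p = 8.05e-05) in knockout, or 1.95-fold and 1.94-fold, and 0.69 and 0.66 scaled to total reads.

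Eif4a1, the helicase itself (chr11:69666936-69672423, minus strand), rose by 0.50 and 0.46 (limma adjusted p = 0.0107 and 0.0354), but scaled to total reads it gave 0.22 and 0.17 (limma adjusted p = 0.261 and 0.434), and with the culture as a block the knockout value missed the threshold (limma adjusted p = 0.0686). Of its 50-base windows 28.4% occur in other genes. Eif4h, which like eIF4B aids eIF4A, changed least, with 0.00 and 0.08 (limma adjusted p = 0.997 and 0.711). The scaffolds Eif4g1 and Eif4g3, the cap-binding genes Eif4e and Eif4e2 and the helicases Eif4a2 and Eif4a3 were among the 8 genes not called in either genotype on the deposited scale. Scaled to total reads Eif4g1 was called lower in both genotypes (limma adjusted p = 0.0166 and 0.0296). On that scale Eif4a3 and Eif4e2 were called lower in wild type, and Eif4e and Eif4g3 in knockout.

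Eif4e3, an atypical cap-binding relative of eIF4E (chr6:99625135-99666771, minus strand), fell. Its log2 CPM was 2.66, 2.19, 2.71, 3.03 and 3.30 in OGD_WT and 3.64, 3.26, 3.53, 3.32 and 3.52 in N_WT, and 2.62, 2.58, 2.61, 3.12 and 3.12 in OGD_KO and 3.52, 3.23, 3.59, 3.14 and 3.60 in N_KO. The deprived library was lower in 5 of 5 cultures of each genotype, and the groups touched only in wild type, where OGD_WT replicate 5 lay above N_WT replicate 2. The log2 fold change was -0.68 ± 0.18 (SE, limma adjusted p = 0.0045) in wild type and -0.61 ± 0.17 (limma adjusted p = 0.00651) in knockout. Exons of Gm20696 on the same strand cover 14.8% of the gene.

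**Figure D4:**
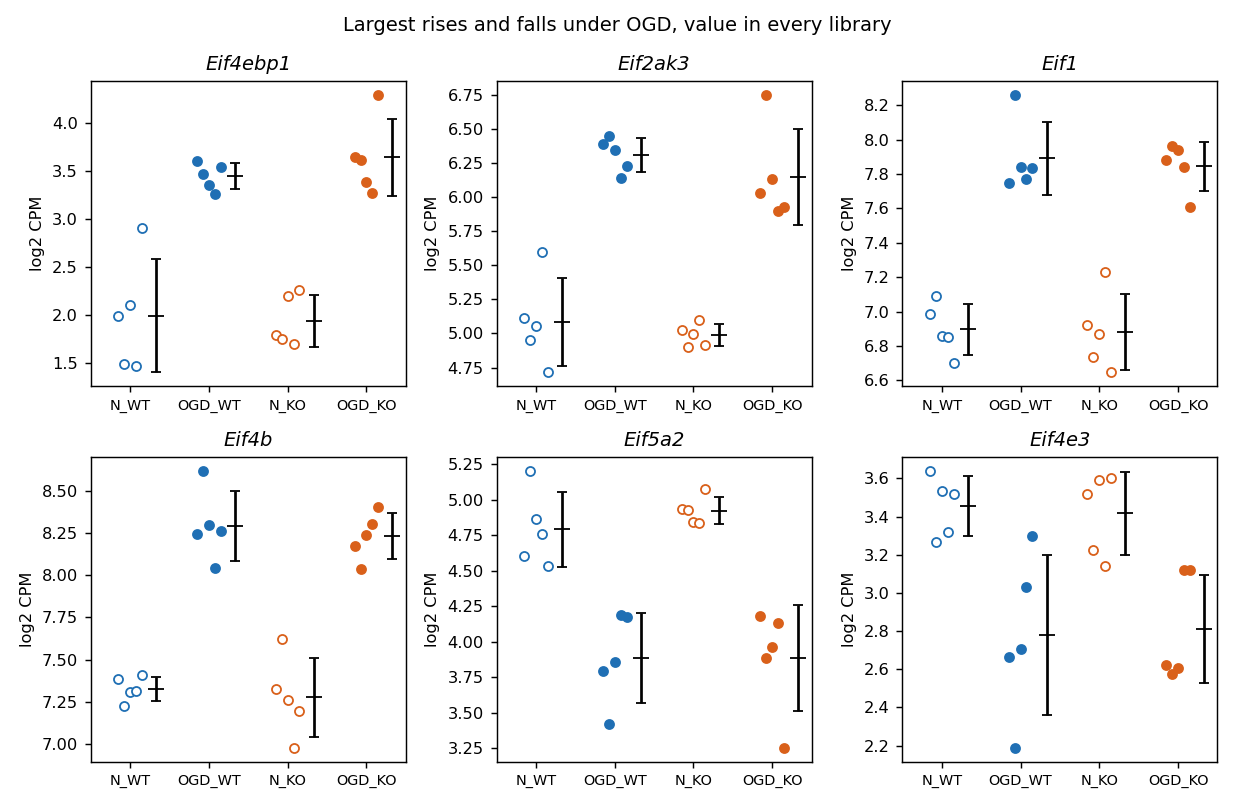
Log2 CPM of the 4 members with the largest rises (Eif4ebp1, Eif2ak3, Eif1, Eif4b) and the 2 that fell (Eif5a2, Eif4e3) in every library; open points are normoxia, filled points deprivation, and bars give the mean ± SD of 5 libraries per group. Deprived and normoxic libraries separate in each panel except Eif4e3 in wild type.

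In start codon selection, both eIF1 genes rose. Eif1, the factor that keeps the scanning ribosome from starting at poor sites (chr11:100319885-100322096, plus strand), had log2 CPM of 7.75, 8.26, 7.84, 7.77 and 7.84 in OGD_WT and 6.99, 7.09, 6.86, 6.85 and 6.70 in N_WT, and 7.88, 7.96, 7.94, 7.84 and 7.61 in OGD_KO and 6.92, 6.74, 6.87, 7.23 and 6.65 in N_KO. The groups did not overlap. Its log2 fold change was 0.99 ± 0.15 (SE, limma adjusted p = 1.45e-05) in wild type and 0.96 ± 0.15 (limma adjusted p = 6e-05) in knockout, or 1.99-fold and 1.95-fold, and 0.72 and 0.67 scaled to total reads. Other genes share 19.2% of its 50-base windows.

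Its close relative Eif1b (chr9:120492232-120495330, plus strand) went from 5.57 ± 0.21 log2 CPM in N_WT to 6.40 ± 0.24 in OGD_WT and from 5.59 ± 0.17 in N_KO to 6.28 ± 0.19 in OGD_KO (SD, n = 5), again without overlap. The rises were 0.83 (limma adjusted p = 0.000166) and 0.69 (limma adjusted p = 0.000825), and 0.55 and 0.40 scaled to total reads. Eif2a (chr3:58525821-58557501, plus strand), an alternative carrier of initiator tRNA that is distinct from the eIF2 complex, rose by 0.47 and 0.51 (limma adjusted p = 0.0214 and 0.00817). With the culture as a block its wild-type call was lost (limma adjusted p = 0.0596), and scaled to total reads it gave 0.19 and 0.22.

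Eif5a2, the second gene for the hypusine-bearing factor eIF5A (chr3:28781276-28798846, plus strand), had the largest fall of the members. Its log2 CPM was 3.79, 3.42, 3.86, 4.19 and 4.17 in OGD_WT and 4.60, 5.21, 4.86, 4.76 and 4.53 in N_WT, and 4.18, 3.89, 3.96, 4.13 and 3.25 in OGD_KO and 4.93, 4.93, 4.84, 4.84 and 5.07 in N_KO. Every deprived library lay below every normoxic one. The log2 fold change was -0.91 ± 0.17 (SE, limma adjusted p = 0.000207) in wild type, to 0.533 of the normoxic level, and -1.04 ± 0.17 (limma adjusted p = 7.94e-05) in knockout, to 0.486, and -1.18 and -1.33 scaled to total reads. The main gene Eif5a had 0.14 in each genotype (limma adjusted p = 0.451 and 0.519; chosen after its values were seen). Eif1ad had the smallest mean change over both genotypes in this group, with 0.05 and -0.12, which are of opposite sign.

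The eIF3 complex, the scaffold that holds the other factors on the small subunit, held 8 of the 15 wild-type rises and 9 of the 16 knockout rises. Of all genes 21.6% were higher in wild type and 21% in knockout. Eif3c, Eif3e, Eif3f, Eif3g, Eif3h, Eif3i, Eif3k and Eif3m rose in both genotypes, by 0.41 to 0.61 in wild type and 0.48 to 0.58 in knockout, and Eif3a passed in the knockout alone, at 0.50 against 0.39 in wild type, with the difference between genotypes not called. The largest were Eif3f with 0.61 and 0.57 (limma adjusted p = 0.0025 and 0.00868), Eif3h with 0.59 and 0.58 (limma adjusted p = 0.00162 and 0.00386) and Eif3m with 0.60 and 0.54 (limma adjusted p = 0.00235 and 0.00666). None fell, and Eif3b, Eif3d, Eif3j1, Eif3j2 and Eif3l passed in neither genotype. Eif3j2, whose 50-base windows occur to 91.8% in other genes, had -0.11 and 0.33. The median of the 14 subunits was 0.41 and 0.50.

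These eIF3 calls rested on the scale. Scaled to total reads 0 subunits were higher, in wild type and in knockout, 0 were lower in wild type and 1, Eif3b, was lower in knockout, with medians of 0.14 and 0.21 beside -0.29 and -0.27 for all genes. Eif3f then gave 0.33 and 0.29 (limma adjusted p = 0.0786 and 0.159), Eif3h 0.31 and 0.29 (0.0887 and 0.143) and Eif3m 0.32 and 0.25 (0.0886 and 0.205). With the culture as a block 6 and 8 subunits rose, as the wild-type calls of Eif3c and Eif3i (limma adjusted p = 0.0786 and 0.069) and the knockout call of Eif3a (0.0631) were lost.

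Between knockout and wild type 0 of the 53 members were called, in normoxia or after deprivation, at an adjusted p under 0.05 in limma. This does not show that differences were absent. In simulated reads with 200 changed genes, log2 differences of 0.5 were called for 19.4% in normoxia and 5.9% after deprivation. Differences of 1 were called for 82.7% and 74.4%. Over all genes 0.0353% (5 of 14152) were called in normoxia and 0.0282% (4 of 14185) after deprivation, and 0 members had even an unadjusted p under 0.05, beside 1.81% and 1.78% of all genes. The log2 difference of knockout from wild type ran from -0.69 to 0.26 in normoxia and from -1.26 to 0.34 after deprivation, both lowest values being those of Eif2s3y. The median size of the difference was 0.04 in each, beside 0.07 and 0.08 for all genes. For the eIF2 kinases it ran from -0.10 to 0.02 in normoxia and from -0.15 to 0.25 after deprivation.

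The response to deprivation was not found to differ between the genotypes for any member, with 0% of 13688 genes called in the interaction of genotype and treatment and 0 members at an unadjusted p under 0.05, beside 0.731% of all genes. A p that misses the threshold does not show that the responses were alike. In simulated reads the interaction called 3.3% of log2 differences of 0.5 and 36.65% of those of 1. For Eif2ak3 the knockout response minus the wild-type response was -0.08 (95% interval -0.60 to 0.45), for Eif4ebp1 0.24 (-0.46 to 0.94), for Eif1 -0.04 (-0.54 to 0.46) and for Eif4b -0.02 (-0.49 to 0.44). For the genes that fell it was -0.15 (-0.73 to 0.43) for Eif5a2 and 0.06 (-0.50 to 0.62) for Eif4e3.

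Of the genes around the eIF2 kinases, those of the ATF4 arm rose most often. That list had 22 symbols, among them Cars and Cars1 for 1 gene, and 21 were found in each deprivation comparison. Of these 16 were higher and 0 lower in wild type and 18 and 0 in knockout, with median log2 fold changes of 0.94 and 0.88. The lists overlap: Ppp1r15a and Ddit4, named with other lists below, are counted here too. All of these lists were chosen with earlier results of these data known. Over all genes 21.6% and 21% were higher, 22.8% and 19.9% were lower, and the medians were -0.03 and 0.00. With total-read scaling 14 were higher and 0 lower in each, with medians of 0.66 and 0.58. The list's largest rise was Atf3, a stress-induced transcription factor, at 2.96 and 2.85 (limma adjusted p = 2.61e-11 and 4.63e-08). Atf4 itself rose by 0.89 and 0.88 (limma adjusted p = 0.000115 and 0.000997), and Asns, the asparagine synthetase gene, had -0.06 and -0.06 (limma adjusted p = 0.785 and 0.837), both chosen after their values were seen.

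Among 13 genes of eIF2 phosphorylation and dephosphorylation other than the members, 4 were higher and 0 lower in wild type and 4 and 1 in knockout, with medians of 0.16 and 0.13. Of all genes 21.6% were higher and 22.8% lower in wild type, and 21% and 19.9% in knockout. Ppp1r15a, encoding GADD34, the stress-induced subunit that directs a phosphatase to eIF2, rose by 0.94 in both genotypes (limma adjusted p = 9.58e-05 and 6.25e-05) and by 0.66 and 0.65 scaled to total reads. On that scale the list had 1 higher and 4 lower in wild type, against 11.5% and 40.5% of all genes. In knockout it had 1 and 3, against 10.4% and 37%. With the culture as a block 2 were higher and 0 lower in knockout.

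In the list of mTORC1 and MNK control of eIF4, 4 of 16 genes were higher and 3 lower in wild type and 5 and 1 in knockout, with medians of 0.21 and 0.19. The shares of all genes were 21.6% higher and 22.8% lower in wild type, and 21% and 19.9% in knockout. Ddit4, encoding the mTORC1 inhibitor REDD1, rose by 1.79 and 1.66 (limma adjusted p = 9.88e-07 and 4.38e-07), and by 1.52 and 1.37 scaled to total reads. Mknk2, a kinase of eIF4E, fell by 0.51 and 0.42 (limma adjusted p = 0.0185 and 0.036), but with the culture as a block the adjusted p was 0.0604 and 0.0582. Scaled to total reads the list had 3 higher and 6 lower in wild type, against 11.5% and 40.5% of all genes. In knockout it had 2 and 4 on that scale, against 10.4% and 37%, and with the block 3 and 0.

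The counts of the next list lay near or below the shares of all genes, 21.6% higher and 22.8% lower in wild type and 21% and 19.9% in knockout as deposited, and 40.5% and 37% lower scaled to total reads. Of 20 cap and poly(A) partners and scanning helpers, 4 were higher and 3 lower in each genotype (medians 0.03 and 0.02), with the helicase gene Ddx3x at 0.59 and 0.72 (limma adjusted p = 0.0103 and 0.00274) and the nuclear cap-binding gene Ncbp2 at -0.92 and -0.69 (limma adjusted p = 8.13e-05 and 0.00114). Scaled to total reads 0 were higher and 7 lower in each, and Ddx3x no longer passed (limma adjusted p = 0.15 and 0.0714). Of 15 elongation and termination genes, 5 were higher and 2 lower in wild type and 5 and 3 in knockout (medians 0.04 and -0.17). They were led by the elongation factor gene Eef1a1 at 0.70 in both (limma adjusted p = 0.00142 and 0.00418) and by Eef1akmt1, a lysine methyltransferase of that factor, at -0.96 and -1.15 (limma adjusted p = 0.000123 and 2.47e-05). On the total-read scale the list had 2 higher and 7 lower in wild type and 1 and 7 in knockout, and Eef1a1 gave 0.42 and 0.41 and no longer passed in knockout (limma adjusted p = 0.0451 and 0.0726). With the culture as a block 5 were higher and 1 lower in knockout.

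Of 6 mitochondrial initiation and elongation genes, 0 were higher and 2 lower in wild type and 0 and 1 in knockout (medians -0.10 and -0.13), with Tsfm, the mitochondrial exchange factor, at -0.58 and -0.67 (limma adjusted p = 0.0141 and 0.0102). With the culture as a block 1 was lower in wild type, and scaled to total reads 3 were lower in wild type and 2 in knockout. Of all genes 22.8% were lower in wild type and 19.9% in knockout as deposited, and 40.5% and 37% scaled to total reads. In the knockout comparisons and in the interaction, 0 genes of any of these 6 lists were called.

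**Figure D5:**
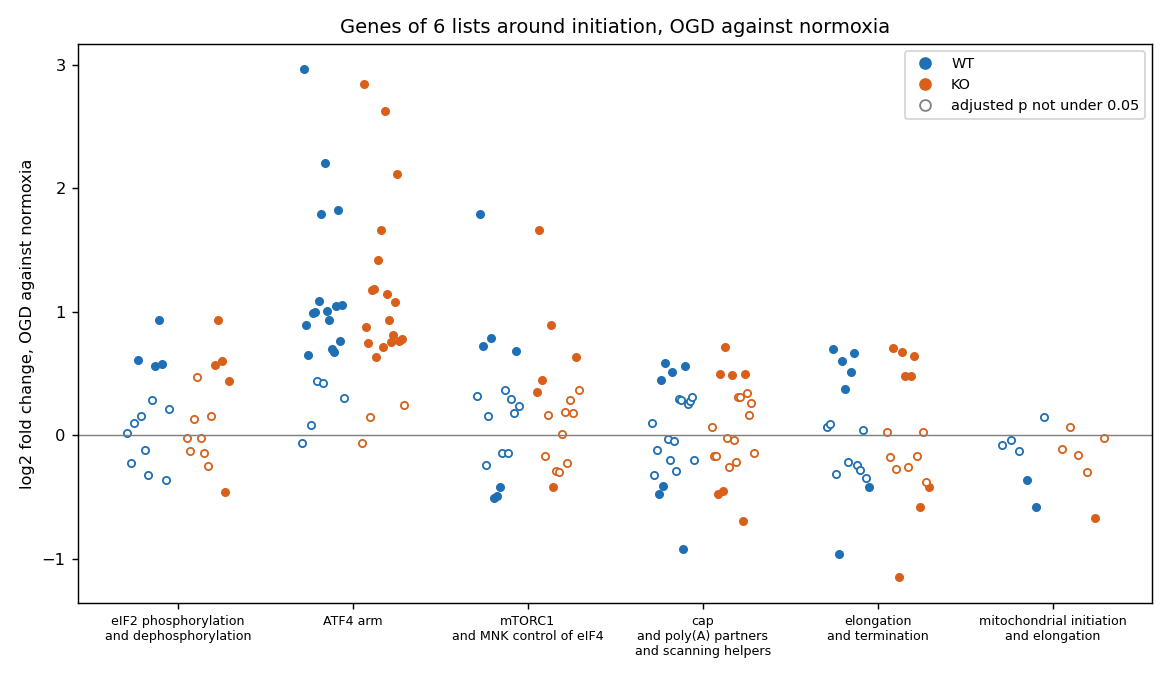
Log2 fold change after deprivation for the genes of the 6 lists around translation initiation, in wild-type (blue) and knockout (orange) neurons; filled points have an adjusted p under 0.05. The ATF4 arm lies mostly above 0, with medians of 0.94 and 0.88, and the other lists spread to both sides.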

How the data were processed

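RNA of 20 libraries was read from total RNA with a stranded kit, per the labels. The authors deposited 4 tables of log2 CPM, each for 1 pair of groups and normalized separately, and every comparison was made within its own table. The genome build mm10 is named in the submitters' processing notes; the aligner, the counting and its use of strand are not given in the sources used here. Within each gene and group of 5 the deposited log2 values had their lowest and highest value drawn in to the 10th and 90th percentiles. This was undone by solving for the extremes, after which at least 99.91% of values up to 500 reads came to whole reads within 0.05 reads, against 45.5% to 92.8% as deposited.

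Genes were tested with limma 3.58.1 (R 4.3.3) on the log2 values of each table, with its trend option and no block, two-sided, with Benjamini-Hochberg adjustment over all genes of the table at 0.05. As the unit is log2 CPM, no count model was the main test; voom on the recovered reads was an alternative. The interaction was fitted over all 20 libraries on the recovered reads of the 13688 genes of all 4 tables, with a prior count of 2, scaled to total reads, and with the culture as a correlated block (consensus correlation -0.17). Scripts were tested on simulated data. Levels per kilobase used GENCODE exon lengths, and promoters came from RefSeq.

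Libraries of 1 genotype share a number and a culture batch across treatments per the labels, and on that basis they were taken as pairs from 1 culture. Deviations from the group means of paired libraries correlated at -0.64 to 0.06 in wild type and -0.79 to -0.07 in knockout. A deprived library correlated best with its own number in 0 of 5 in each genotype, so these values do not bear out the pairing. The cause was not tested. Labels give culture batches 1, 2, 3.1, 3.2 and 3.3, and the last 3 were pooled as batch 3 in the batch fits. p-values measure the spread between these 5 libraries per group.

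The members, role groups, pathway and marker lists were chosen with earlier results of these data known. Named with values were every eIF2 kinase, eIF2 subunit and eIF4E-binding gene, in each other role group the up to 3 largest rises and falls called in both genotypes and the genes that changed most and least, and in each pathway list the largest rise and fall called in both. Genes were ranked by their mean log2 fold change over both genotypes. Alternatives were the deposited values, median centring, 1 CPM added before the log, a minimum mean log2 CPM of 1, voom, the culture block, a batch term, batch 3 only, and leaving out each library; scaling to total reads was added after seeing the data.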

Additional observations from a re-analysis of the deposited data

Results flagged for a closer look

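In groups of 5 libraries a single library stood far from the others for 4 members. Of 44 groups examined, over the 11 members whose values are given in every library, 5 met the criterion of Dixon's test, where chance gives about 1 in 20, or 2.2 of 44. Eif2ak3, the PERK gene, was at 6.75 log2 CPM in OGD_KO replicate 2, against 5.90 to 6.13 in the other 4. Eif1 was at 8.26 in OGD_WT replicate 2, against 7.75 to 7.84. Eif2ak4, the GCN2 gene, was at 5.43 in OGD_WT replicate 5, against 4.86 to 4.99. Eif2s3y, the Y copy of the eIF2 gamma gene, was at -1.21 in OGD_KO replicate 2, with 0 reads, against 4.17 to 5.35, and at 1.42 in N_KO replicate 2, with 33 reads, against 3.91 to 4.88. Both Eif2s3y values belong to knockout culture 2, which is also the culture of the high Eif2ak3 value.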

How the results depend on the processing

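The count of members called after deprivation ran from 12 to 25 over the alternatives in wild type (17 as reported) and from 5 to 25 in knockout (18 as reported); leaving out each library in turn gave 13 to 21 and 15 to 20. With batch 3 only (labels 3.1, 3.2 and 3.3 pooled), 3 or 4 cultures remain, and 5 knockout members were called, Eif2ak3, Eif4ebp1, Eif4b, Eif1 and Eif5a2. The deposited values, with their extremes drawn in, gave 25 in each genotype. The counts for the knockout comparisons and the interaction were 0 under every alternative run. The culture as a replicate block left 14 calls in wild type and 17 in knockout, losing Eif3c, Eif3i and Eif2a, and Eif3a and Eif4a1, and gaining Eif2s2 in knockout. It changed no other call of a member. In limma the block also lowered the share of all genes at an unadjusted p under 0.05. That share went from 51.4% to 48.9% in wild type and from 49.5% to 44.6% in knockout. Across genotypes the libraries share only a number: same-numbered deviations correlated at -0.07 to 0.24 in normoxia and -0.21 to 0.24 after deprivation, a library correlated best with its own number in 3 and 2 of 5, and the replicate block left both counts at 0. Scaling to total reads turned the sign of 15 of the 53 members in wild type and 12 in knockout, 0 of them called as reported. Over all alternatives the sign was checked for the 26 members named by rule, and turned when scaled to total reads for Eif1ad (-0.23), Eif2ak4 (-0.025), Eif2b2 (-0.20), Eif2s3y (-0.0034) and Eif4enif1 (-0.14) in wild type and Eif2ak4 (-0.013), Eif4enif1 (-0.13) and Eif4h (-0.21) in knockout; with batch 3 only for Eif1ad (-0.013) and Eif4h (0.029) in wild type; and median centred for Eif4h (0.0061) in wild type. Leaving out single libraries gave ranges across 0 for Eif2b2 (-0.11 to 0.20 in wild type, -0.27 to 0.063 in knockout), Eif3j2 (-0.25 to 0.11 in wild type), Eif4h (-0.063 to 0.073 and -0.018 to 0.17) and Eif2s3y (-0.84 to 0.94 in knockout). Leaving out 1 library also ended the call of Eif2a in wild type in 4 fits (adjusted p up to 0.0548 in limma) and of Eif4a1 in knockout in 7 fits (up to 0.0791). The causes were not tested. Depth limits Eif3j2, with 7 to 38 reads per library, Eif4ebp1, with 25 to 180, and Eif2s3y in knockout culture 2, with 0 and 33.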
